A study of Homo sapiens with 6 samples.

Results

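The late-numbered known human miRNAs are the names whose number after miR- is 1000 or larger, which were added to the miRNA catalogue after the classical families. In the deposited table they were picked out by their names, leaving out miR-1323, and the rule uses no measured value. The rule found 182 names among 1007 rows, which also held 315 other known human miRNAs and 510 rows of predicted sequences. The samples were small RNA of 18 to 30 nt from vesicles shed into the medium by MHCC97H, a strongly metastatic human liver cancer line; they were pelleted at 120000xg for 70 min. The control group had 3 libraries. The xanthatin group also had 3, from cells exposed for 24 h to 4 µmol/L of this plant-derived sesquiterpene lactone. DMSO at 0.5% was stated for all experiments. The cells of both groups grew in medium with 5% fetal bovine serum and 5% fetal bovine serum free of exosomes, so the vesicle pellet could also hold RNA of serum. The labels do not say whether the 3 libraries of a group came from separate cultures, and p-values measure only the spread between these libraries.

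A miRNA guides an Argonaute protein to messenger RNAs, mostly by pairing of its seed, the bases 2 to 8 from its 5′ end. Classical miRNAs are cut from a hairpin by Drosha and then by Dicer. Mirtrons skip Drosha, since splicing frees a short intron that folds into the hairpin. Other late-numbered names lie in small nucleolar RNA, ribosomal RNA or tRNA, and reads given to them may be fragments of those RNAs. Many of these names are read rarely, and liver cells are better known for classical miRNAs such as miR-122.

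Mature sequences from RefSeq (GRCh38.p14) matched 160 of the 182 names. The following carry the results, with the seed in capitals and all read 5′ to 3′. The first set is of members that fell in xanthatin libraries.
miR-1275: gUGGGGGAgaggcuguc
miR-6529-5p: gAGAGAUCagaggcgcagagug
miR-4658: gUGAGUGUggauccuggaggaau
miR-1293: uGGGUGGUcuggagauuugugc
miR-1247-3p: cCCCGGGAacgucgagacuggagc
miR-6754-3p: uCUUCACCugccucugccugca
The next set is of members shown for their resemblance to another name or for a sequence that touches a splice site, with miR-423-5p as an earlier-numbered partner. The set also holds miR-4466, which is shown for its GC content.
miR-3184-5p: uGAGGGGCcucagaccgagcuuuu
miR-423-5p: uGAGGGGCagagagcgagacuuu
miR-1269a: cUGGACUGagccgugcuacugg
miR-1269b: cUGGACUGagccaugcuacugg
miR-6834-5p: gUGAGGGAcugggauuugugg
miR-1228-5p: gUGGGCGGgggcaggugugug
miR-4466: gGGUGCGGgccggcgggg
The 6 falling members that are printed have 6 different seeds. miR-6892-5p, which also fell, and miR-10401-5p, which rose, are named only.

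The late-numbered sequences were richer in G and C than the other known names. Their median GC content was 59.1% (quartiles 52.2% and 68.2%), against 50.0% (40.9% and 55.4%) for the 284 other known names with a sequence. More than 60% GC was found in 71 of 160 (44.4%) late-numbered sequences and in 43 of 284 (15.1%) others. miR-4466 was the extreme, at 94.4% GC. The median length was 22 nt in both sets, but 11 late-numbered sequences and 0 others were 18 nt or shorter. Of these 11, 5 had 17 nt, which is below the range of the gel selection, among them miR-1275 and miR-4443. Names of 18 nt or shorter held 26.4% of the counts of the 160 names. A G at the first base was found in 16.2% of late-numbered and 8.10% of other sequences. These names with a first G held 34.9% of the late-numbered counts and 0.290% of the other known counts, and miR-1275 and miR-6529-5p both begin with G.

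**Figure D1:**
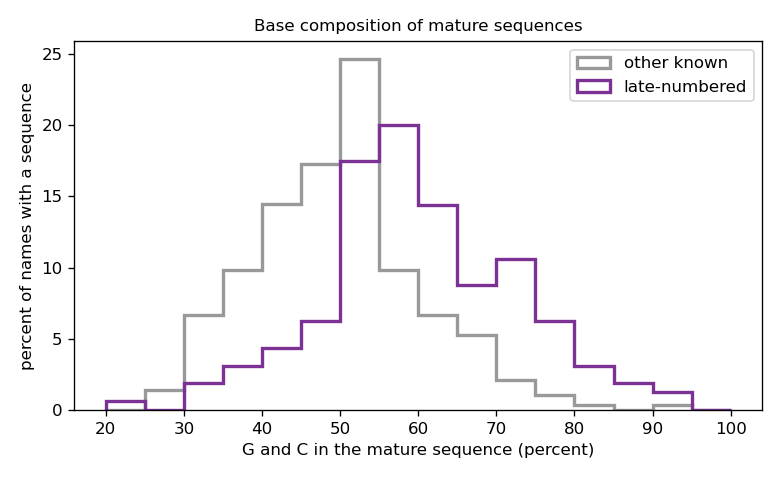
GC content of mature sequences in percent (x axis, bins of 5 percentage points) against the percentage of names with a sequence (y axis), for 160 late-numbered and 284 other known names. The late-numbered curve lies to the right, with a median of 59.1% against 50.0%.

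The genes around the hairpins differed as well. In the GENCODE release 29 annotation (GRCh38), 113 of 160 late-numbered names (70.6%) lay on the same strand as a protein-coding gene, against 131 of 284 others (46.1%). Hairpins at the end of an intron, within 10 nt of a splice site, were found for 32 late-numbered names (20%) and 4 others (1.41%). The sequences carried the letters of splice sites. Of 7 late-numbered 5p names whose hairpin starts at an intron's 5′ end, 6 begin with GU, as miR-6834-5p and miR-1228-5p printed above do. Of 10 late-numbered 3p names whose hairpin reaches an intron's 3′ end, 7 end in AG. Among other known names, not picked by position, 2.22% of 135 5p sequences begin with GU and 4.10% of 122 3p sequences end in AG. Since the late-numbered names here were picked by their place at a splice site, these letters are a description and no separate evidence. miR-1291 overlaps the small nucleolar RNA gene SNORA2C and miR-1843 overlaps SCARNA3, which makes an RNA of Cajal bodies.

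The libraries differed in depth between the groups: the miRNA counts were 63965 to 80088 in control and 204520 to 267956 in xanthatin libraries, a 3.32-fold difference in the means. In both groups the vesicles carried the hepatocyte markers (6 of 6 listed names read), which held 11.5% to 14.6% of control counts and 2.91% to 3.59% of xanthatin counts. Blood and serum markers held 0.619% to 1.19% and 0.0556% to 0.0705% (5 of 6 read, miR-144 at 0), and stromal and endothelial markers 0.413% to 0.566% and 0.0616% to 0.0885% (6 of 7 read, miR-199b without a row of its own). Neural and endocrine markers held 0.0899% to 0.140% and 0.161% to 0.230% (miR-124 at 0), and muscle markers 0.0299% to 0.0412% and 0.00485% to 0.0159% (miR-133b at 0). Predicted sequences held 9.52% ± 1.46 (SD, n = 3) of control and 21.3% ± 0.97 (SD, n = 3) of xanthatin counts. The marker shares are sums over each list, and names within a list need not have changed in the same direction. The part of depth and of these markers in the results on late-numbered names was not tested. In a share, less of one RNA and more of the others cannot be told apart.

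Late-numbered names took a smaller share of the xanthatin libraries. The share of miRNA counts was 2.41%, 2.75% and 2.97% in control replicates 1, 2 and 3, and 0.848%, 0.779% and 1.12% in the xanthatin replicates. The groups did not overlap, and the means were 2.71% ± 0.28 and 0.914% ± 0.179 (SD, n = 3 each), a ratio of 2.97. The two-sided exact permutation test gave p = 0.1 (0.1 after adjustment over 2 such tests), the smallest value that 3 against 3 libraries allow. In raw counts the late-numbered total differed little between the groups: it was 1932, 1933 and 1901 in control against 2021, 2087 and 2284 with xanthatin, a ratio of means of 1.11. Without the 8 members that passed the test below, the share was 0.994% to 1.19% in control and 0.609% to 0.810% in xanthatin libraries, which also did not overlap.

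**Figure D2:**
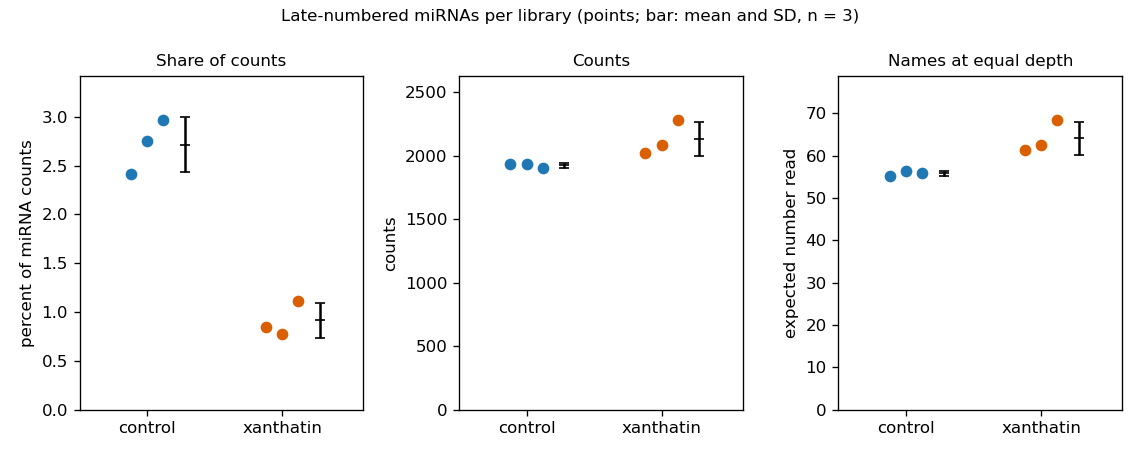
Share of miRNA counts in percent (left), raw counts (middle) and number of late-numbered names expected at an equal depth of 63965 counts (right), 1 point per library with the mean and SD (n = 3) beside them. The control shares lie between 2.41% and 2.97%, above the xanthatin shares of 0.779% to 1.12%, while the counts lie between 1901 and 2284.

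The material was concentrated in few names in control and less so with xanthatin. The 5 most abundant names of a library held 56.6% to 63.9% of its late-numbered counts in the control group, against 35% to 42.2% with xanthatin. miR-1275 and miR-6529-5p together held 42.1% of late-numbered counts in control but 10.4% with xanthatin. The median name had 15 counts in the 6 libraries together, 28 names had a single count and 53 had 5 or fewer. Only 31 of the 182 (17.0%) passed the count filter and were tested, against 147 of 315 (46.7%) other known names, so 151 late-numbered names have no test.

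Of the 31 tested members, 7 fell and 1 rose in xanthatin libraries by the edgeR quasi-likelihood test (adjusted p under 0.05 over all 254 tested rows). That is 25.8% of the tested members, beside a background of 30.3% of all tested rows. By direction, 22.6% of the tested members fell and 3.23% rose, beside backgrounds of 16.9% and 13.4%. A log2 fold change below 0 was found for 22 of 31 members and 138 of 254 rows, and the medians were -1.07 and -0.16. The members' median turned positive under other count filters: it was 0.12 with a mean CPM filter (all rows 0.014) and 1.39 with no filter (all rows 0.60). Without control replicate 2 it was -0.21 (all rows 0.075). The groups did not overlap, with the xanthatin libraries lower, for 10 of 31 members (32.3%; background 29.5%). With the xanthatin libraries higher this held for 1 of 31 (3.23%; background 25.2%). These shares are descriptions, and the difference between members and other rows was not tested. Without control replicate 2, without xanthatin replicate 1 and without xanthatin replicate 3, the number that fell was 4 each time. DESeq2 also called 8 of the 31, beside 44.9% of all tested rows. Of the 8 members called, 4 were above the filter's level in all 6 libraries (miR-1275, miR-1293, miR-1247-3p and miR-6754-3p). The other 4 passed the filter only through the group where they were high, so a difference was built into their selection: miR-6529-5p, miR-6892-5p and miR-4658 through control, and miR-10401-5p through xanthatin libraries.

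**Figure D3:**
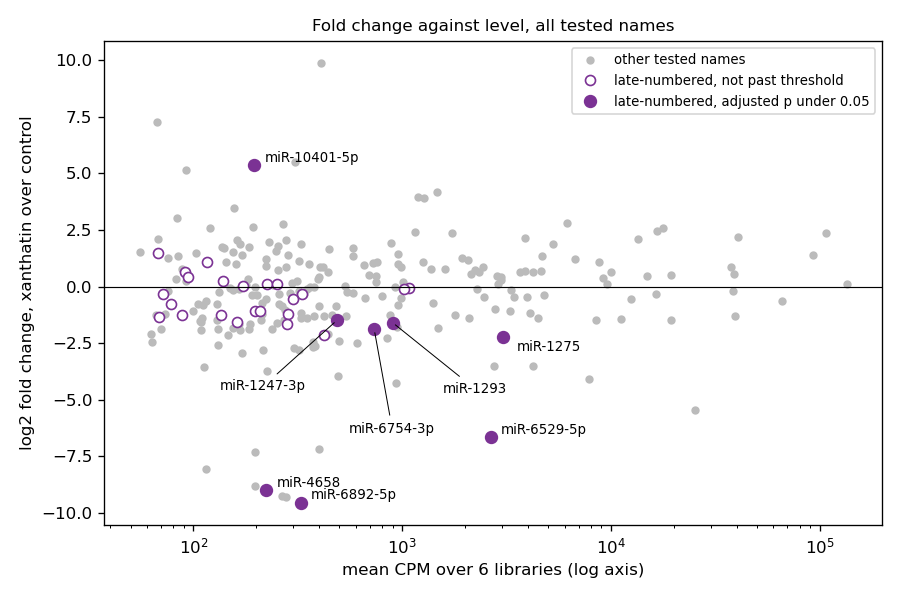
Fitted log2 fold change of xanthatin over control (y axis) against the mean CPM over 6 libraries (x axis, log scale) for the 254 tested names. Late-numbered names are purple, filled where the adjusted p was under 0.05: 7 filled points lie below 0 and miR-10401-5p lies at 5.38.

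The 4 largest log2 fold changes among the falls were of miR-6892-5p, miR-4658, miR-6529-5p and miR-1275. miR-6529-5p had 413, 398 and 435 control counts against 26, 4 and 2 with xanthatin, despite the greater depth of the latter. On the scale of CPM (counts per 1000000 of the TMM-scaled library total) it fell from 5281 ± 533 to 51.1 ± 64.1 (SD, n = 3 each; log2 fold change -6.66, SE 0.93, adjusted p = 0.00306). It passed the count filter through control libraries alone, so a difference was built into its selection. Most of its remaining counts were in xanthatin replicate 1, without which the log2 fold change was -8.41. It was the most abundant late-numbered name of control replicates 1 and 2, and its sequence lies at chr3:120084614-120084635 (GRCh38, minus strand) in an intron of GSK3B, the gene of a kinase in Wnt and insulin signalling. Its share of late-numbered counts was 20.6% to 22.9% in control and 0.0876% to 1.29% in xanthatin libraries.

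miR-1275 had the most counts over the 6 libraries together, while miR-6529-5p had more in control and miR-3184-5p more in xanthatin libraries. It had 359, 387 and 437 control counts against 165, 172 and 293 with xanthatin, and fell from 5031 ± 845 to 1058 ± 517 CPM (SD, n = 3 each; log2 fold change -2.25, SE 0.37, adjusted p = 0.00535), and the groups did not overlap. The call was kept in all 16 other settings tried. Its 17 nt lie at chr6:34000018-34000034 (minus strand), outside annotated genes of that strand. It is on the list of names reported to overlap other RNA classes.

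miR-6892-5p had 43, 39 and 71 counts in control libraries and miR-4658 had 58, 23 and 27, and both had 0 counts in all xanthatin libraries. Their values are given as a description, since their control counts alone took them past the count filter. Against a floor of 3 counts over the xanthatin group (4.82 CPM), miR-6892-5p, at 655 ± 264 CPM in control, was at least 134-fold lower (adjusted p = 0.00306). miR-4658, at 447 ± 206 CPM, was at least 94.5-fold lower (adjusted p = 0.00413). The mature miR-4658 lies at chr7:100156611-100156633 (minus strand) in an exon of C7orf43. No molecular identifiers are described, so PCR reads are not independent molecules and the floors and intervals reflect counting error alone.

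The other 3 falls had log2 fold changes from -1.90 to -1.50, and their raw counts overlapped between the groups although the xanthatin libraries were deeper. miR-1293, in an intron of LIMA1 (an actin-binding protein) at chr12:50234182-50234203, had 126, 110 and 87 control counts against 84, 154 and 50 with xanthatin. It fell from 1356 ± 160 to 445 ± 188 CPM (SD, n = 3 each; log2 fold change -1.60, SE 0.39, adjusted p = 0.0239). miR-1247-3p, in an exon of the noncoding gene DIO3OS at chr14:101560326-101560349, had 43, 60 and 65 control counts against 60, 46 and 49 with xanthatin. That is a fall from 718 ± 192 to 253 ± 51.3 CPM (SD, n = 3 each; log2 fold change -1.50, SE 0.40, adjusted p = 0.0341). miR-6754-3p comes from a mirtron-like hairpin whose 3′ end meets the end of a NADSYN1 intron, at chr11:71473546-71473567. With 46, 78 and 143 counts against 54, 56 and 77 it fell from 1158 ± 709 to 310 ± 108 CPM (SD, n = 3 each; log2 fold change -1.90, SE 0.56, adjusted p = 0.0462).

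In none of these 3 did the groups overlap in CPM, but the calls were near the threshold and were kept in 9 (miR-1293), 6 (miR-1247-3p) and 5 (miR-6754-3p) of 16 other settings. The call of miR-1293 was lost when any 1 control replicate, xanthatin replicate 1 or xanthatin replicate 3 was removed (adjusted p = 0.0651 to 0.0914). miR-1247-3p lost its call when control replicate 2, control replicate 3 or any of the xanthatin replicates was removed (0.0876 to 0.128). miR-6754-3p did so under the same removals (0.0790 to 0.140).

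The member called higher was miR-10401-5p, which passed the filter through the xanthatin libraries alone, with 1, 1 and 0 control counts against 36, 23 and 156 with xanthatin. Its CPM was 8.20 ± 7.12 in control against 383 ± 432 with xanthatin (SD, n = 3 each; log2 fold change 5.38, SE 1.32), with the highest value in replicate 3. With 2 control counts in all, the count rate was 41.0 times that of control (exact 95% Poisson interval 11.2 to 340), and the adjusted p was 0.0245. The call was lost when any 1 control replicate was removed (adjusted p = 0.0559 to 0.0727), with limma-voom (0.25) and with a replicate block (0.0923). Without xanthatin replicate 1 or 3 the name no longer passed the count filter and has no value. Its other arm, miR-10401-3p, did not follow: it had 33 counts in control replicate 1, 25 in xanthatin replicate 3 and 0 in the other libraries, too few for a test.

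**Figure D4:**
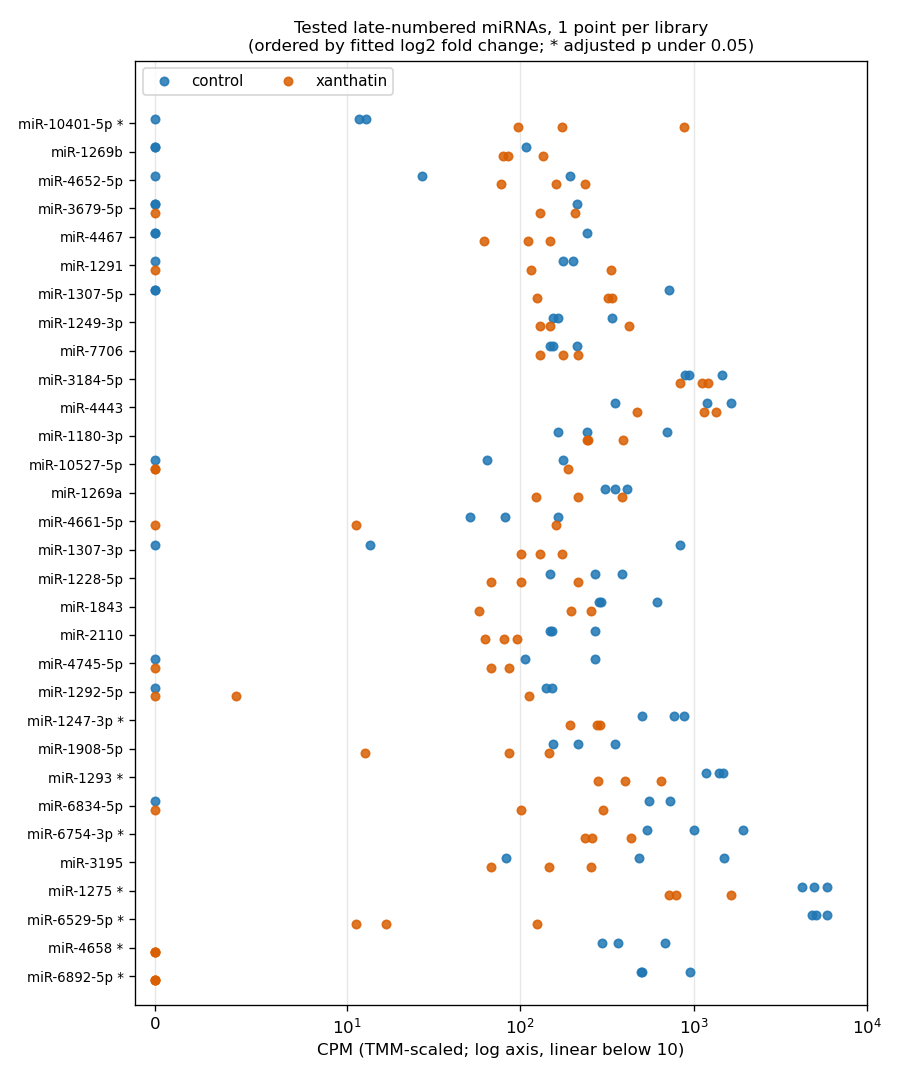
CPM of the 31 tested late-numbered miRNAs (x axis, log scale that is linear below 10; names on the y axis, ordered by fitted log2 fold change), 1 point per library. The 7 names that fell have separate blue (control) and orange (xanthatin) points. Many unmarked names have points at 0 beside points above 100 CPM in the same group.

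Among the abundant members that did not pass, miR-3184-5p stood in a narrow ratio to an earlier-numbered miRNA. Its locus lies on the strand opposite miR-423, at chr17:30117128-30117151 in noncoding genes of its own strand, and its sequence overlaps the mature miR-423-3p by 21 nt in antisense. It shares its first 8 bases with miR-423-5p from the plus strand of that hairpin, as the printed sequences show, and differs from it at 10 of the positions compared. miR-3184-5p had 125, 73 and 66 control counts against 251, 199 and 199 with xanthatin. That was 2.30% to 3.20% of the miR-423-5p counts in control (3910, 3171 and 2674) and 2.28% to 3.25% in xanthatin libraries (7713, 8719 and 6137). Levels were 1099 ± 321 and 1057 ± 192 CPM for miR-3184-5p (log2 fold change -0.06, SE 0.32, adjusted p = 0.936; the sign turned under other scalings). For miR-423-5p they were 40934 ± 4917 and 36177 ± 1354 CPM (log2 fold change -0.18, SE 0.11, adjusted p = 0.242). How reads were divided between such names in the deposited counts is not given in the sources used here.

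miR-4443, the other 17-nt name of high abundance, had 30, 128 and 88 control counts against 239, 112 and 238 with xanthatin. At 1062 ± 654 and 988 ± 457 CPM, its groups overlapped (log2 fold change -0.10, SE 0.64, adjusted p = 0.941). miR-3195 ranged from 82.3 to 1500 CPM within the control group and from 67.6 to 255 CPM in the xanthatin group (log2 fold change -2.13, SE 1.05, adjusted p = 0.162). miR-1843, which overlaps SCARNA3, was at 398 ± 189 and 171 ± 103 CPM, groups that did not overlap, and did not pass (adjusted p = 0.223).

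Names reported in liver cancer or tumour vesicles were a list of 8 miRNAs, for which 9 rows were in the table. Of 6 tested, 1 fell (miR-1247-3p) and none rose, and the median log2 fold change was -0.45. Over all tested rows 16.9% fell, 13.4% rose and the median was -0.16, so the list did not stand out by its falls. miR-1180-3p, from an intron of B9D1, was at 371 ± 292 and 294 ± 85.9 CPM. With 14, 55 and 18 control counts against 51, 93 and 43 with xanthatin, its fitted log2 fold change was -0.34 (SE 0.65, adjusted p = 0.756). miR-1269a, which is reported as raised in liver tumours, had 35, 24 and 26 control counts against 80, 29 and 38 with xanthatin. Its level was 357 ± 52.0 and 241 ± 133 CPM (log2 fold change -0.57, SE 0.54, adjusted p = 0.474). miR-1269b differs from miR-1269a by G13A, counted from the 5′ end, and shares its seed. It had 0, 0 and 8 control counts against 28, 20 and 14 with xanthatin, and did not pass (log2 fold change 1.46, SE 1.49, adjusted p = 0.501). miR-1307-5p had 56 counts in control replicate 2, 0 in the other control libraries and 26, 80 and 57 in xanthatin libraries (log2 fold change 0.13, SE 1.77, adjusted p = 0.976). Without control replicate 2 it was called higher (log2 fold change 8.37, adjusted p = 0.0231). Its other arm, miR-1307-3p, had 71, 0 and 1 control counts, so the control library rich in each arm was a different one. miR-1301-3p, from an intron of DNMT3A, had 36, 0 and 0 control counts against 11, 24 and 7 with xanthatin and was not tested.

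Mirtron-like names were read at low levels. Of the 32 by annotation, 7 had hairpins that reached both ends of an intron, 23 only the 3′ end and 2 only the 5′ end. Names without a sequence, such as miR-6892-5p, could not enter the list by annotation. The 32 mirtron-like names by annotation held 9.91% of late-numbered counts, and 0.265% ± 0.048 of control and 0.0943% ± 0.047 of xanthatin miRNA counts (SD, n = 3 each). Of 5 tested, 1 fell (miR-6754-3p), and all 5 had log2 fold changes below 0 (median -1.34). On the list by name, 2 of 4 tested fell, miR-6754-3p and miR-6892-5p (median -1.79). Of these 2, miR-6892-5p passed the filter through control libraries alone, so a difference was built into its selection. Over all tested rows 16.9% fell and the median was -0.16. The hairpin of miR-6834-5p reaches both ends of a short intron of PFDN6, which makes a prefoldin subunit. The mature name had 62, 43 and 0 control counts against 0, 24 and 53 with xanthatin, so a library without a count stood beside full ones in both groups (log2 fold change -1.68, SE 1.85, adjusted p = 0.542).

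Names reported to overlap other RNA classes numbered 16 and held 20.6% of late-numbered counts. They took 0.637% ± 0.111 of control and 0.170% ± 0.095 of xanthatin counts (SD, n = 3 each). Of 3 tested, miR-1275 fell, miR-10401-5p rose, and miR-1291 had 15, 0 and 15 control counts against 24, 79 and 0 with xanthatin (adjusted p = 0.944). Of these, miR-10401-5p passed the filter through xanthatin libraries alone. Beside these calls stand 16.9% lower and 13.4% higher over all 254 tested rows, and 3 tested names are too few for a comparison. The list's median log2 fold change was 0.25, while its summed share was lower in the xanthatin group. None of the 4 late-numbered miRNAs listed for the miRNA clusters of chromosomes 14 and 19 (miR-1185, miR-1193, miR-1197 and miR-1283) was among the members, and miR-1247-3p, although in DIO3OS on chromosome 14, was not on that list.

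By number, the 38 names of the 1000s held 40.3% of late-numbered counts and had 14 tested, of which 3 fell and none rose. The calls in each range stand beside 16.9% lower and 13.4% higher over all 254 tested rows. The 31 names of the 6000s held 19.5% and had 4 tested, of which 3 fell (median log2 fold change -4.28), beside 16.9% lower over all tested rows. Of these 3, miR-6529-5p and miR-6892-5p passed the filter through control libraries alone. The 6000s took 0.860% ± 0.176 of control and 0.0811% ± 0.031 of xanthatin counts (SD, n = 3 each), mostly through miR-6529-5p. In the 4000s, with 41 names, 1 of 6 tested fell (miR-4658), and in the 3000s, with 44 names, none of 3 passed. The 12 names numbered 8000 or above took 0.0429% ± 0.019 of control and 0.0754% ± 0.032 of xanthatin counts, ranges that overlapped. Of their 2 tested names 1 rose (miR-10401-5p), beside 13.4% higher over all tested rows. The filter was passed by miR-4658 through control libraries alone and by miR-10401-5p through xanthatin libraries alone. The 3 names of the 2000s, 9 of the 5000s and 4 of the 7000s had 2 tested between them and none passed. miR-2110, of the 2000s, was at 190 ± 68.6 and 79.5 ± 16.7 CPM without overlap (adjusted p = 0.139). miR-7706, of the 7000s, was at 171 ± 34.9 and 175 ± 43.4 CPM (adjusted p = 0.985). The other leading names of these small ranges were not tested: miR-2682-5p had 0, 0 and 5 control counts against 0, 40 and 7 with xanthatin, and miR-7974 had 0, 6 and 0 against 13, 14 and 0. miR-5100 had 5, 9 and 0 against 4, 1 and 7, and miR-5010-3p was read in xanthatin replicate 2 alone, with 12 counts.

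Shared seeds joined 25 of the 160 late-numbered names into 15 groups, 8 of them with an earlier-numbered name. miR-1908-5p and miR-10396b-5p have the seed of miR-663a, all 3 rich in G. Their counts had no common pattern: miR-1908-5p had 30, 12 and 16 in control against 18, 3 and 26 with xanthatin. In CPM, which allows for depth, miR-1908-5p was at 241 ± 102 in control and 82.0 ± 67.1 with xanthatin. Its groups did not overlap in CPM, and it did not pass (log2 fold change -1.55, SE 0.92, edgeR adjusted p = 0.237). miR-10396b-5p had 0, 0 and 0 control counts against 1, 34 and 43 with xanthatin. miR-663a had 0, 65 and 0 against 78, 31 and 77. miR-1268a, whose 18 nt are the first 18 of miR-1268b, had 48 of its 53 counts in control replicate 2, where miR-1268b had 3.

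Reads of most late-numbered names were patchy between libraries of the same group. A single library held all counts of 93 of the 182 names (51.1%), against 65 of 315 (20.6%) other known names, and 18 (9.89%) were read in every library, against 137 (43.5%). These single-library names were not all at 1 count: 10 of the 93 had 20 or more. Chosen after their values were seen, miR-4791 had 40 counts in control replicate 1, miR-6716-3p had 37 in xanthatin replicate 1, and miR-3168 had 29 in control replicate 2, with 0 elsewhere. Where a late-numbered name reached 20 counts in a control library, another control library had 0 for 15 of 33 names (45.5%), against 23 of 140 (16.4%) other known names. In xanthatin libraries these were 24 of 50 (48.0%) and 19 of 164 (11.6%). Among predicted rows they were 43 of 81 (53.1%) in control and 43 of 118 (36.4%) in xanthatin libraries, so this was not particular to late-numbered names. Fewer predicted rows had all counts in a single library (105 of 510, 20.6%). Total counts differ between the sets. At totals of 20 to 300, where the medians were 53 and 61 counts, 53 of 63 late-numbered (84.1%) and 76 of 123 other known names (61.8%) had 0 in at least 1 library. For predicted rows in that range (median 46 counts) it was 115 of 165 (69.7%). A count of 0 allows up to 3 counts, or 35.3 to 40.5 CPM in a control and 12.7 to 16.9 CPM in a xanthatin library.

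**Figure D5:**
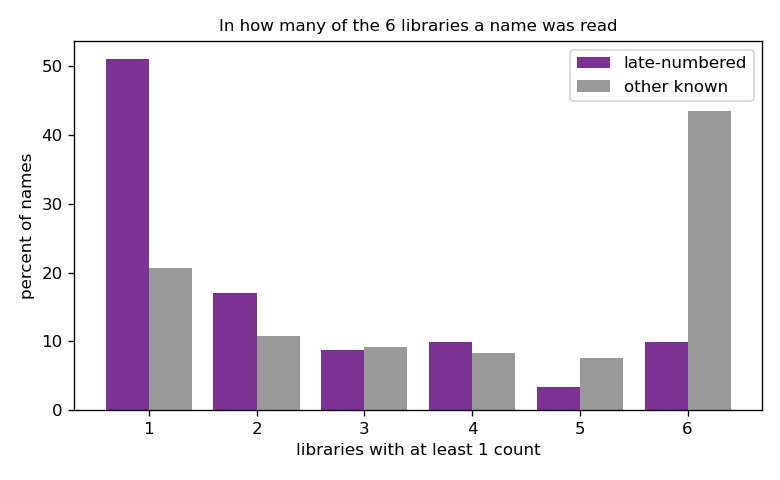
Number of libraries, of 6, in which a name had at least 1 count (x axis) against the percentage of names (y axis), for 182 late-numbered and 315 other known names. The late-numbered bar is tallest at 1 library (51.1%) and the other known bar at 6 libraries (43.5%).

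Of the 23 tested members that did not pass, 12 had a library at 0, with SEs of 1.33 to 2.11 on the log2 scale. The other 11 had SEs of 0.32 to 1.05. The median biological coefficient of variation fitted by edgeR was 0.66 over tested late-numbered names (median 158 total counts) and 0.49 over other known names (median 448 total counts).

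More late-numbered names were read in the deeper xanthatin libraries, and somewhat more at equal depth. At full depth 58, 58 and 56 names were read in control against 76, 81 and 84 with xanthatin. At 63965 counts, the depth of the smallest library, the expected numbers were 55.2, 56.3 and 56.0 in control against 61.4, 62.4 and 68.6 with xanthatin. The groups did not overlap, with means of 55.8 ± 0.58 and 64.1 ± 3.87 (SD, n = 3 each; two-sided exact permutation p = 0.1, the smallest possible, and 0.1 after adjustment over 2 tests). The other known names went from 195 to 215 expected at that depth in control to 181 to 198 in xanthatin libraries, ranges that overlapped. Of the late-numbered names, 35 were read only in control libraries, 75 only in xanthatin libraries and 72 in both groups. Most of those read in 1 group were read in 1 library (31 of 35 and 62 of 75).

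The untested members with the most counts included miR-4466, with 0, 0 and 1 control counts against 76, 13 and 46 with xanthatin. With 1 control count in all, the count rate was 51.4 times that of control (exact 95% Poisson interval 9.08 to 2046), which covers counting error only. Its groups did not overlap. miR-10396b-5p was read in all xanthatin libraries (1, 34 and 43 counts) and no control library. With counts pooled over each group, it was at least 9.91-fold higher against 3 counts over the control group, which covers counting error only. miR-3177-3p, from an intron of MAPK8IP3, had 60, 27 and 0 counts in xanthatin libraries and 0 in control. With a xanthatin library also at 0, its groups overlapped, so no lowest fold change is given. miR-10394-3p had 0, 30 and 1 control counts against 13, 81 and 0 with xanthatin, with no separation of the groups.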

How the data were processed

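Per the file headers, the authors deposited a count and a TPM value per mature miRNA name for each of the 6 libraries. These deposited counts are raw whole numbers. In each library the TPM deposited by the authors is proportional to the count, and its total served only as an alternative library size. Per the submitters' processing notes the build was hg38, and aligner, miRNA database and counter are not given in the sources.

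Counts of all 1007 rows were tested in 1 fit with edgeR 4.0.16 (R 4.3.3; quasi-likelihood F test on group, TMM scaling, default filter with minimum count 10), which left 254 rows, and p-values were adjusted over these by Benjamini-Hochberg at a threshold of 0.05. CPM uses the TMM-scaled totals of tested rows. SEs were obtained as |log2 fold change| divided by the root of F. Numbers of names at equal depth are hypergeometric expectations. Sequences and their positions come from RefSeq (GRCh38.p14) and gene context from GENCODE release 29, by the first locus of a name. A hairpin was called mirtron-like where it lay in an intron of its strand, with up to 10 nt of overhang, and had an end within 10 nt of an intron end.

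Named with values were members that passed, the 12 tested members of highest mean CPM, the 5 untested members with most counts and the 2 members with most counts in each list. Other members named for an arm, a seed or a partner were chosen after their values were seen. The naming rule of the members uses no values, but that rule and the lists were chosen with earlier results of these data known. Alternatives were other scalings and library sizes, filters, DESeq2 1.42.0, limma-voom (limma 3.58.1), known names only, a replicate block and leaving out each library. Replicate libraries were not duplicates (chi-square over degrees of freedom 16.1 to 21.3).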

Additional observations from a re-analysis of the deposited data

How the results depend on the processing

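The number of late-numbered members called was 8 and lay within 1.5 times of that under RLE and upper-quartile factors, unscaled totals, TPM-derived totals, DESeq2, limma-voom, no count filter and known names only. It was 5 with a filter of mean CPM 10 and 5 with the replicate block, and 4 to 7 with 1 library left out. The number higher, 1 in the main analysis, was 2 with no count filter (where miR-4466 passed), 0 with limma-voom, 0 with the replicate block, and 0 to 2 with 1 library left out. The number lower, 7, was 4 with no count filter, 4 with the CPM filter and 4 to 6 with 1 library left out. miR-6529-5p, miR-6892-5p, miR-4658 and miR-1275 were called in every setting, which for the first 3 says little, since they passed the filter through control libraries alone. The cause of the other losses was not tested. No pairing by replicate number was seen: the correlations of deviations between same-numbered libraries were 0.12, -0.02 and -0.06. Between differently numbered libraries they were -0.16 to 0.18. So few correlations cannot exclude a weak pairing. The groups' difference in share (-1.67 to -1.95 percentage points) and in names at equal depth (6.09 to 9.67) kept its direction with each library left out. Over rows tested in both fits, the median log2 fold change moved by 0.11 with RLE factors or DESeq2, 0.12 with limma-voom, 0.29 with no filter, 0.23 with the block, -0.34 with totals only and -0.14 with TPM-derived totals. With rows that name several miRNAs left out, the difference in share was -1.81 percentage points.

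Log2 fold changes were followed across the settings for 18 members only. Among those of the 18 that did not pass, 5 changed sign, and the cause was not tested. miR-1307-5p was at -0.045 with upper-quartile factors, -0.22 with totals only, -0.025 with the TPM total and -0.53 to 8.37 with 1 library left out. miR-3184-5p was at 0.056 with RLE, 0.055 with upper-quartile factors, 0.24 with no filter, 0.032 with the CPM filter, 0.053 with DESeq2, 0.029 with known names only and -0.13 to 0.17 with 1 library left out. miR-4443 was at 0.14 with no filter, 0.0014 with limma-voom, 0.030 with the replicate block and -0.58 to 0.38 with 1 library left out. miR-7706 was at -0.32 with totals only, -0.050 with the TPM total, -0.025 with limma-voom and -0.13 to 0.25 with 1 library left out. miR-1180-3p was at -0.73 to 0.60 with 1 library left out.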
